A study of Mus musculus with 10 samples.

Results

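Macrophage genes of the pancreatic islet were followed in 10 RNA-seq libraries, as 10 genes picked by symbol: the surface marker Adgre1, the growth factor receptor Csf1r and its ligand Csf1, the complement genes C1qa, C1qb and C1qc, the lysozyme gene Lyz2, the lysosomal gene Cd68, the mannose receptor gene Mrc1 and the endotoxin co-receptor gene Cd14. Each matched 1 row among the 52178 Ensembl genes of the table, and all 10 were among the 15298 genes that passed the filter on low counts. The libraries came from islets of male C57Bl/6 mice, retired breeders, 5 from the exercise group (exercise 6 to 10) and 5 from the sedentary group (sedentary 1 to 5). Exercise mice ran on a treadmill at 17 cm/s, with 5 degrees of incline, for 1 hour on 5 days a week during 2 weeks, after 3 days of getting used to it. In both groups the islets were released with collagenase, picked by hand and placed in medium with 11 mM glucose. The labels do not say whether libraries came from separate mice, so that p-values describe the spread between libraries, which may in part be technical.

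Macrophages are phagocytes that live in nearly every tissue, where they clear dying cells and sense microbes. Most depend for survival on the receptor tyrosine kinase CSF1R, which binds the secreted factors CSF1 and IL-34. In mouse pancreas, macrophages inside islets are known to carry the integrin CD11c, while part of those in the tissue between the acini carry the mannose receptor. Islet macrophages are few beside endocrine cells. In libraries of whole islets, fewer macrophages and less macrophage RNA per cell cannot be told apart.

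The libraries held between 15081922 and 23222704 counts. Sedentary 1 and 2 stood apart from the other 8 in their tissue markers. The summed level of 8 beta cell genes was 8034 CPM (counts per 1000000 counts of library size, scaled by the TMM method) in sedentary 1 and 36857 CPM in sedentary 2, whereas it was 131605 to 186824 CPM in exercise and 133699 to 192393 CPM in sedentary 3 to 5. The summed level of 16 genes of the intestinal epithelium was 288 to 808 CPM in exercise libraries, against 13747 CPM in sedentary 1, 21069 CPM in sedentary 2 and 3101 to 4119 CPM in sedentary 3 to 5. The 13 acinar genes summed to 169631 to 463252 CPM in exercise and 72525 to 151251 CPM in sedentary libraries. Results are therefore also given without sedentary 1 and 2, from 8 libraries.

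Of the 10 macrophage genes, 2 were higher in exercise than in sedentary islets, Cd14 and Csf1, and 0 were lower (Benjamini-Hochberg adjusted p below 0.05 by edgeR's quasi-likelihood test). At an unadjusted p under 0.05, 3 were higher and 0 lower, and DESeq2 called 3 higher and 0 lower after adjustment. Over all genes tested, 2.44% were called higher and 11.4% lower. Mrc1 missed the threshold with a log2 fold change of 1.75, beside 2.11 for Cd14. The other 7 genes, among them the markers that define macrophages, gave intervals that included 0. The median log2 fold change was 0.32 over the 10 genes and 0.00 over all genes tested. In the 8 libraries without sedentary 1 and 2 it was -0.065 over the 10 genes and 0.026 over all genes. There 1 of the 10, Mrc1, was called higher and 0 lower (edgeR, 3 higher and 1 lower unadjusted), against 4.10% of all genes called higher and 8.68% lower. DESeq2 called 5.13% of all genes higher and 15% lower, limma-voom 1.16% and 2.22%, and edgeR with library totals as the only scaling 1.04% and 28.8% (higher before lower).

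**Figure D1:**
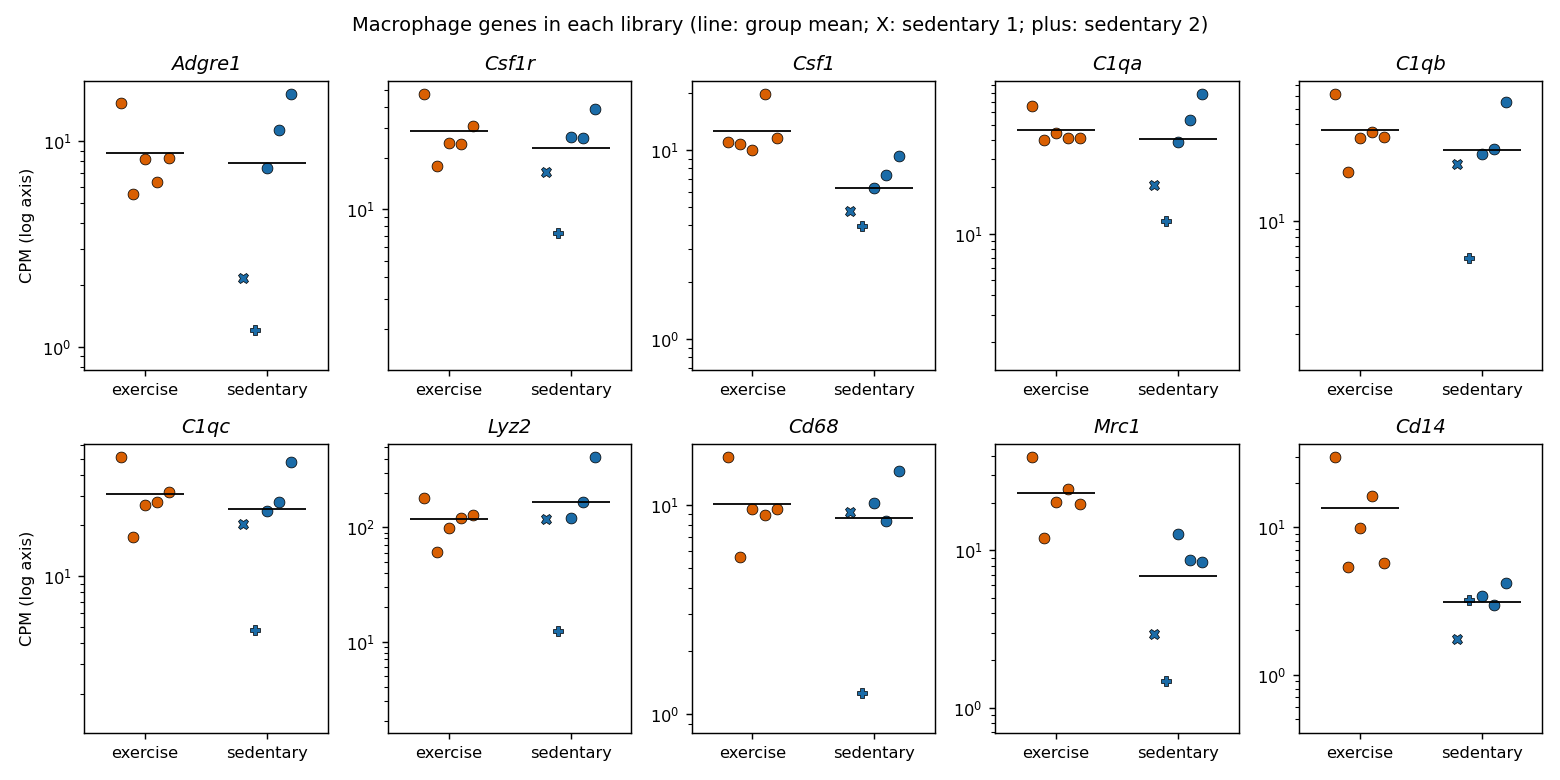
Level of each of the 10 macrophage genes in CPM (log axis) in the 5 exercise and 5 sedentary libraries, with the group mean as a line; an X marks sedentary 1 and a plus sedentary 2. Cd14 and Csf1 have no overlap between groups, with exercise higher, as in 6.24% of all genes tested. The groups overlap for the other 8 genes, with sedentary 2 lowest of all libraries in each of these 8.

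In the markers of macrophage identity the groups overlapped, and sedentary 2 was the lowest library in each. Adgre1 (ENSMUSG00000004730), which encodes the adhesion receptor known as the F4/80 antigen, had 15.4, 5.53, 8.23, 6.31 and 8.30 CPM in exercise 6 to 10, against 2.15, 1.20, 7.38, 11.3 and 16.9 CPM in sedentary 1 to 5. The exercise libraries fell inside the range of the sedentary libraries, which was opened downward by sedentary 1 and 2. Its log2 fold change was 0.16 ± 0.62 (SE), with a 95% interval of -1.21 to 1.54 (edgeR adjusted p = 0.858), and -0.41 without sedentary 1 and 2 (edgeR adjusted p = 0.460).

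Csf1r (ENSMUSG00000024621), the receptor on which the lineage depends, had 47.3, 17.8, 24.5, 24.3 and 30.6 CPM in exercise 6 to 10, against 16.5, 7.26, 26.4, 26.3 and 38.6 CPM in sedentary 1 to 5. The groups overlapped, with the lowest level in sedentary 2 and the highest in exercise 6. The log2 fold change was 0.33 ± 0.40 (SE), with a 95% interval of -0.56 to 1.22 (edgeR adjusted p = 0.556), and -0.049 without sedentary 1 and 2. In the transcripts of GENCODE release M21, 14.9% of the 31-base words of Csf1r occurred in another gene, most of them in Hmgxb3, so that a part of its reads could not be told apart by sequence alone. Cd68 (ENSMUSG00000018774), a lysosomal membrane protein of phagocytes, averaged 10.1 ± 4.15 CPM in exercise and 8.69 ± 4.77 CPM in sedentary libraries (SD, n = 5 each), with a 95% interval of -0.89 to 1.33 for the log2 fold change (edgeR adjusted p = 0.762). It was at 1.26 CPM, or 23 counts, in sedentary 2 and at 8.34 to 16.9 CPM in every other library but exercise 7, which had 5.60 CPM.

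The 3 complement genes encode the chains of C1q, the recognition molecule of the classical complement pathway, which macrophages secrete and which binds antibody complexes and dying cells. C1qa (ENSMUSG00000036887) had 65.9, 40.1, 44.4, 40.8 and 40.8 CPM in exercise 6 to 10, against 20.4, 12.1, 38.9, 53.2 and 78.5 CPM in sedentary 1 to 5. The sedentary range enclosed the exercise range at both ends. Its log2 fold change was 0.19 ± 0.43 (SE), with a 95% interval of -0.75 to 1.14 (edgeR adjusted p = 0.757). C1qb (ENSMUSG00000036905) averaged 36.7 ± 15.1 CPM in exercise and 27.6 ± 17.7 CPM in sedentary libraries, and C1qc (ENSMUSG00000036896) 30.8 ± 12.6 and 24.9 ± 15.4 CPM (exercise before sedentary, SD, n = 5 each). Neither passed the test (edgeR adjusted p = 0.534 and 0.654), and without sedentary 1 and 2 the log2 fold changes of C1qa, C1qb and C1qc were -0.27, 0.034 and -0.081. Within libraries, C1qc counts lay between 0.772 and 0.956 of C1qb counts in exercise libraries and between 0.798 and 0.982 in sedentary libraries. Those of C1qb in proportion to C1qa lay between 0.505 and 0.933 in exercise and between 0.491 and 1.11 in sedentary libraries, with the top value in sedentary 1. Transcript length is not taken out of these proportions, so that only their spread over libraries can be read. Across the 10 libraries the log2 CPM of C1qb and C1qc had a Pearson correlation of 0.993, and of 0.973 in the 8 libraries. These are descriptions over libraries that differ in tissue make-up.

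The bases before the start of transcription are shown for C1qb and C1qc, which kept the steadiest proportion of the C1q genes, and for Mrc1, the gene nearest to the threshold. They are the 250 bases before the start from RefSeq on GRCm38.p6, 5′ to 3′ on the gene's strand. Windows of 6 of the 10 genes were used. Those of Adgre1, C1qa, Csf1r and Cd14 were not looked at, so that the matches below do not cover them. Capitals mark the letters GAGGAA, on either strand (TTCCTC on the other), the core that the myeloid transcription factor PU.1 is known to bind.
C1qb, chr4:136886201-136886450, strand minus: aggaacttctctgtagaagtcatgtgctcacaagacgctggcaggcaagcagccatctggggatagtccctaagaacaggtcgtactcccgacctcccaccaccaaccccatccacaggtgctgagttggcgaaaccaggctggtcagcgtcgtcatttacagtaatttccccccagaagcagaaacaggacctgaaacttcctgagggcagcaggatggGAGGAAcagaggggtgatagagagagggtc
C1qc, chr4:136892915-136893164, strand minus: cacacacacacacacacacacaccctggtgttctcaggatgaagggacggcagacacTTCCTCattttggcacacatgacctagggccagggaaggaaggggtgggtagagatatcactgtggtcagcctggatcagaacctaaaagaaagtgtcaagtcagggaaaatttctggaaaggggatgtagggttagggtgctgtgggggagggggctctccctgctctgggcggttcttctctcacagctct
Mrc1, chr2:14229164-14229413, strand plus: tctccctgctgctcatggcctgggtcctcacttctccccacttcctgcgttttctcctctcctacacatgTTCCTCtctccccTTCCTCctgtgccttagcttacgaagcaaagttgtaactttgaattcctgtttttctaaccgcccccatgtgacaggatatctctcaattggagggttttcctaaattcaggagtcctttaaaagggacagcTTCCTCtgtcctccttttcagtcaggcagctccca
C1qb and C1qc held 1 match each and Mrc1 held 3. Cd68 held 1 match, while Csf1 and Lyz2 held 0 in their windows. Of 32851 RefSeq windows of the same length, 23.3% held at least 1 match. The letters TGANTCA, which AP-1 factors are known to bind, occurred 2 times in the window of Cd68 and 0 times in the other 5, against 6.75% of all windows with a match. Matches of letters do not show binding.

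Lyz2 (ENSMUSG00000069516) encodes the lysozyme of macrophages and neutrophils, which cuts bacterial cell walls. It had 181, 60.4, 98.1, 121 and 128 CPM in exercise 6 to 10, against 118, 12.3, 120, 168 and 414 CPM in sedentary 1 to 5. The lowest and the highest level both lay in the sedentary group, in sedentary 2 and sedentary 5. Its log2 fold change was -0.50 ± 0.66 (SE), with a 95% interval of -1.96 to 0.96 (edgeR adjusted p = 0.586). It was 0.17 without sedentary 5, and -0.97 without sedentary 1 and 2 (edgeR adjusted p = 0.156). Its near copy Lyz1, the lysozyme of intestinal Paneth cells, had 16.5, 3.32, 6.16, 9.34 and 7.03 CPM in exercise 6 to 10, against 27.7, 506, 58.9, 23.8 and 84.8 CPM in sedentary 1 to 5. Every exercise library was lower in Lyz1 than every sedentary library, a separation seen in 11.4% of all genes tested. Lyz1 fell, with a log2 fold change of -4.05 (edgeR adjusted p = 0.0193), or of -2.70 without sedentary 1 and 2. Limma-voom did not call it (adjusted p = 0.0667), and with the intestinal list as a covariate the log2 fold change was 0.38. Lyz1 is itself in that list, so that the covariate takes out part of its own change and this value cannot be read as a check. Of the 31-base words of Lyz2 transcripts, 32.8% occurred in Lyz1 transcripts, so that the division of reads between the copies is uncertain, most of all in sedentary 2, where Lyz1 was highest and Lyz2 lowest.

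Csf1 (ENSMUSG00000014599), the growth factor that keeps macrophages alive and that many stromal and endothelial cells secrete, was higher in exercise islets. It had 11.1, 10.7, 10.1, 19.8 and 11.6 CPM in exercise 6 to 10, against 4.78, 3.99, 6.27, 7.39 and 9.25 CPM in sedentary 1 to 5. Every exercise library lay above every sedentary library, as was the case for 6.24% of all genes tested. It rose by a log2 fold change of 0.99 ± 0.27 (SE), with a 95% interval of 0.39 to 1.60 (edgeR adjusted p = 0.0383). Leaving out any 1 exercise library, or sedentary 1, 2 or 3, ended the call (edgeR adjusted p = 0.0563 to 0.0888), and without sedentary 1 and 2 together the log2 fold change was 0.75 (edgeR adjusted p = 0.0717). Limma-voom did not call it (adjusted p = 0.0625), and with the intestinal list as a covariate it was -0.23 (edgeR adjusted p = 0.882). Il34, the other ligand of the receptor, averaged 1.46 ± 0.53 CPM in exercise and 1.35 ± 0.83 CPM in sedentary libraries (SD, n = 5 each), and did not pass (edgeR adjusted p = 0.886). Of the 10 genes listed for the CSF1 axis, 8 could be tested, of which Csf1 rose and 0 fell (edgeR, 0 also under DESeq2, and 0 at an unadjusted p under 0.05), with a median log2 fold change of -0.098, against 0.00 over all genes. The share that rose was 12.5%, beside 2.44% of all genes, and 11.4% of all genes fell.

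Cd14 (ENSMUSG00000051439) encodes a co-receptor that hands bacterial lipopolysaccharide to the TLR4 complex, and it is made by macrophages as well as monocytes. It had 30.0, 5.40, 9.95, 16.2 and 5.71 CPM in exercise 6 to 10, against 1.73, 3.22, 3.44, 2.98 and 4.21 CPM in sedentary 1 to 5. Every exercise library lay above every sedentary library, as in 6.24% of all genes tested. Exercise 7 and 10 lay close to sedentary 5 and exercise 6 far above. Its log2 fold change was 2.11 ± 0.49 (SE), with a 95% interval of 1.03 to 3.18 (edgeR adjusted p = 0.0200). With any 1 library left out it lay between 1.58, without exercise 6, and 2.34, and the call held in all 10 cases (edgeR adjusted p = 0.0255 to 0.050). Without sedentary 1 and 2 it was 1.94 and just missed the threshold (edgeR adjusted p = 0.0516), and limma-voom did not call it (1.83, adjusted p = 0.0742).

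The partners of CD14 in the receptor complex did not pass the test. Tlr4, the signalling receptor, had 2.68 ± 1.07 CPM in exercise and 2.16 ± 1.37 CPM in sedentary libraries (edgeR adjusted p = 0.619), and Ly96, which encodes the MD-2 subunit that holds lipopolysaccharide, 3.71 ± 0.40 and 4.47 ± 0.75 CPM (exercise before sedentary, SD, n = 5 each, edgeR adjusted p = 0.311). Of 12 genes of the CD14 and TLR4 axis, 1 rose, Cd14 itself, and 2 fell (edgeR), with a median log2 fold change of -0.22, against 0.00 over all genes tested. The share that rose was 8.33% and the share that fell 16.7%, beside 2.44% and 11.4% of all genes. Irak4, a kinase downstream of the receptor, averaged 4.08 ± 1.02 CPM in exercise and 15.9 ± 10.9 CPM in sedentary libraries, and Ticam1, the adaptor TRIF, 15.8 ± 1.57 and 34.9 ± 15.7 CPM (exercise before sedentary, SD, n = 5 each). Both fell (edgeR adjusted p = 0.0203 and 0.0220), and their levels were highest in sedentary 1 and 2, at 25.2 and 30.0 CPM for Irak4 and 44.9 and 57.7 CPM for Ticam1, the libraries highest in intestinal genes. The log2 fold changes were -1.96 for Irak4 and -1.14 for Ticam1, and -0.95 and -0.58 without these libraries (edgeR adjusted p = 0.0223 and 0.00719). Limma-voom called neither (adjusted p = 0.0805 for Irak4 and 0.0625 for Ticam1), and with the intestinal list as a covariate their log2 fold changes were 0.65 and 0.24. The part of intestinal tissue in these falls was not tested. Leaving out exercise 7, 8, 9 or 10 ended the call of Irak4, and leaving out exercise 6, 7, 8 or 9 that of Ticam1 (edgeR adjusted p up to 0.0563 and 0.0619). Tlr2, a receptor for bacterial lipopeptides named after its values were seen, lay between 15.2 and 24.2 CPM in exercise and between 3.28 and 12.3 CPM in sedentary libraries, and missed the threshold (log2 fold change 1.22, edgeR adjusted p = 0.0616). It passed without sedentary 1 and 2 (0.76, edgeR adjusted p = 0.0107), without sedentary 4 and under DESeq2. Limma-voom did not call Tlr2, nor did edgeR with library totals, with either covariate or with any other 1 library left out.

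**Figure D2:**
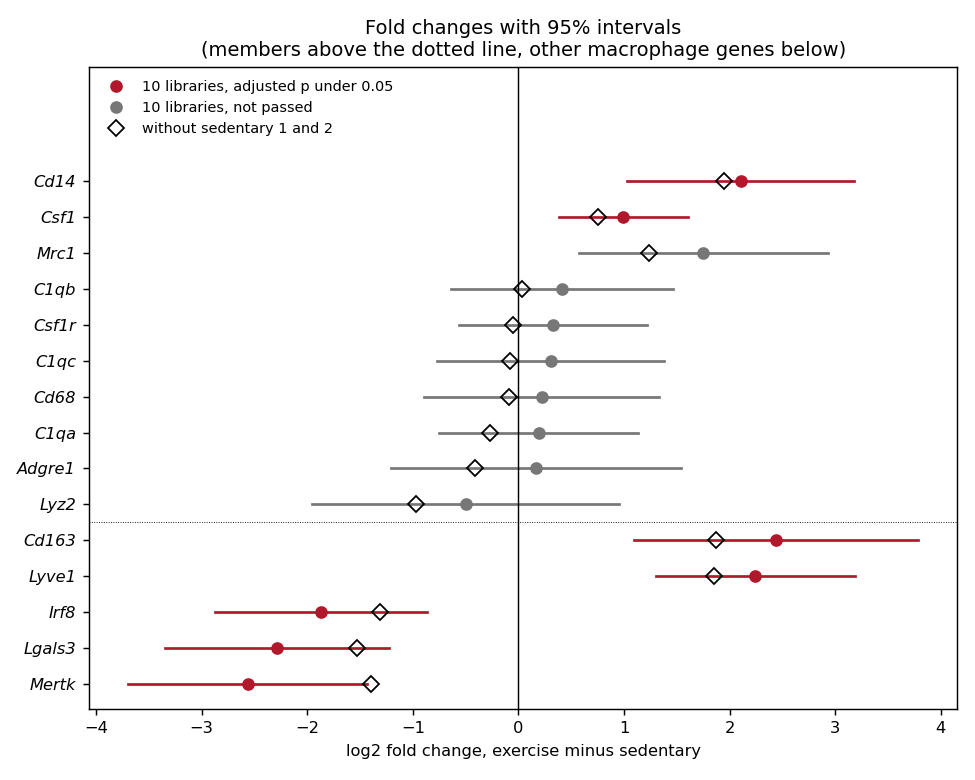
Log2 fold change of exercise minus sedentary with its 95% interval (edgeR, 10 libraries, red where the adjusted p was under 0.05), and the fold change without sedentary 1 and 2 as an open diamond, for the 10 macrophage genes (above the dotted line) and for 5 further macrophage genes that passed. Cd14, Csf1, Mrc1, C1qb, Cd163 and Lyve1 lie to the right of 0 under both sets of libraries. Their changes, and those of Mertk, Lgals3 and Irf8, which fell, are smaller without sedentary 1 and 2.

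Mrc1 (ENSMUSG00000026712) encodes the mannose receptor CD206, which takes up glycoproteins and marks many resident macrophages, and some endothelial cells as well. It had 39.4, 11.9, 20.3, 24.5 and 19.6 CPM in exercise 6 to 10, against 2.93, 1.47, 12.7, 8.72 and 8.47 CPM in sedentary 1 to 5. The groups overlapped only in that exercise 7 lay just below sedentary 3. Its log2 fold change was 1.75 ± 0.53 (SE), with a 95% interval of 0.57 to 2.93, and missed the threshold (edgeR adjusted p = 0.0530). It passed without sedentary 1 and 2, at 1.24 (edgeR adjusted p = 0.0395), without sedentary 3 (2.09, edgeR adjusted p = 0.0332), without sedentary 4 (1.86, edgeR adjusted p = 0.0499) and under DESeq2 (1.77, adjusted p = 0.00799). Limma-voom did not call it (1.99, adjusted p = 0.0620), nor did edgeR with library totals (1.35, adjusted p = 0.0743). With the acinar or intestinal list as a covariate the log2 fold change was 1.16 or 0.56 (edgeR adjusted p = 0.604 and 0.881). Leaving out any other 1 library gave no call (edgeR adjusted p up to 0.116).

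A ratio to Adgre1 within each library asks whether a gene differed beside a general macrophage marker. It depends on library scaling only through the constant added to both levels, which weighs most in sedentary 1 and 2, where Adgre1 was lowest. The log2 ratio of Mrc1 to Adgre1 (0.5 CPM added to each) was 1.33, 1.04, 1.25, 1.87 and 1.19 in exercise 6 to 10, against 0.37, 0.21, 0.75, -0.36 and -0.96 in sedentary 1 to 5. All 5 exercise libraries lay above all 5 sedentary libraries. The share of all genes whose ratio to Adgre1 would separate in this way was not counted. The means were 1.34 ± 0.32 in exercise and 0.0028 ± 0.67 in sedentary libraries (SD, n = 5 each), a difference of 1.33 (two-sided exact permutation p = 0.00794, adjusted p = 0.0714 over 9 ratios). This p is the smallest that all divisions of the libraries allow, and it does not pass the correction. With Csf1r in the place of Adgre1 the difference was 1.45 (exact permutation adjusted p = 0.0714). Without sedentary 1 and 2 it was 1.53 (exact permutation adjusted p = 0.0536).

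None of the other 8 ratios passed (exact permutation adjusted p = 0.50 for Cd14 and 0.960 for the other 7). Without sedentary 1 and 2 the difference was 1.94 for Cd14 and 0.44 for C1qb (exact permutation adjusted p = 0.0536 for each), against 1.15 and 0.054 with all libraries. There all exercise libraries lay above sedentary 3 to 5 for Mrc1, Cd14 and C1qb, so that each had the smallest p those divisions allow. The share of all genes with such a separation was not counted there either. The log2 ratio of Cd14 to Adgre1 averaged 0.39 ± 0.73 in exercise and -0.75 ± 1.24 in sedentary libraries, with sedentary 1 and 2 inside the exercise range and sedentary 3 to 5 below it. The ratio of Csf1r to Adgre1 differed by -0.12 and that of C1qa by -0.11, with SDs on the log2 scale of 0.15 and 0.28 over exercise libraries and 0.65 and 0.39 over sedentary libraries.

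**Figure D3:**
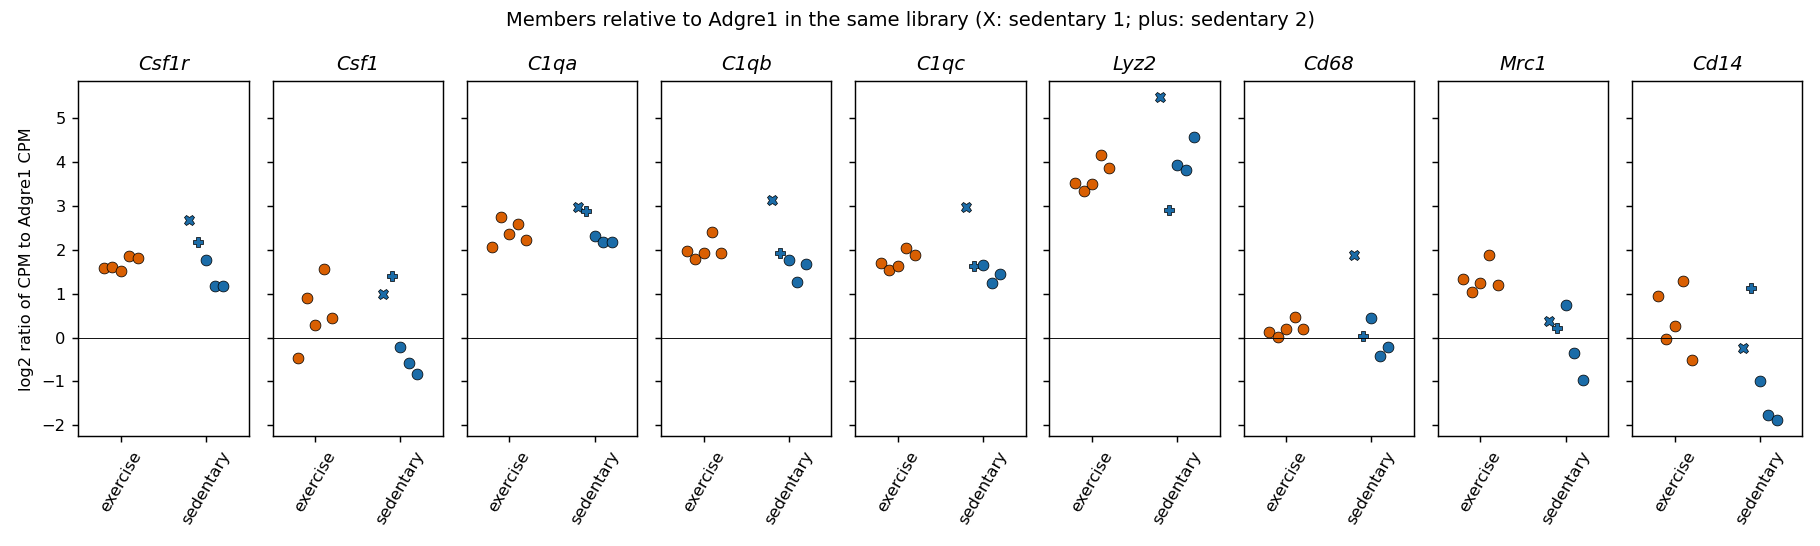
Log2 ratio of the CPM of each of 9 macrophage genes to that of Adgre1 in the same library, for exercise (left) and sedentary (right) libraries, with an X for sedentary 1 and a plus for sedentary 2. In the panel of Mrc1 the exercise libraries lie between 1.04 and 1.87 and the sedentary libraries between -0.96 and 0.75.

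The patterns over libraries differed among the 10 genes. The Pearson correlation of log2 CPM of Adgre1 was 0.942 with Csf1r, 0.988 with C1qa and 0.836 with Lyz2 over the 10 libraries, and 0.882, 0.947 and 0.886 over the 8. That of Mrc1 with Adgre1 was 0.780 over the 10 libraries and -0.037 over the 8, whereas that of Mrc1 with Cd14 was 0.804 and 0.925. Outside the 10 genes, those most like the mean log2 CPM of the 9 genes other than Csf1 were Tbxas1 (Pearson correlation 0.992 over 10 and 0.974 over 8 libraries), the thromboxane synthase gene, Cmklr1 (0.986), the receptor for chemerin, Slc11a1 (0.984), a metal transporter of phagosomes, and Pltp (0.982), the phospholipid transfer protein gene. Fcna, Cd300ld, Unc45b, Timp2, Ltbp4 and Hmox1 followed, at 0.979 to 0.959 over the 10 libraries and 0.810 to 0.940 over the 8. Over the 8 libraries Cmklr1, Slc11a1 and Pltp were at 0.959, 0.974 and 0.947. Those most like Csf1 were Rapgef3 (0.984), Hdc (0.965), Ikzf4 (0.958), Nes (0.949) and Grb10 (0.945). Over the 8 libraries their correlations with Csf1 lay between 0.874, for Nes, and 0.978, for Rapgef3. These values are descriptions, since the libraries share differences of tissue make-up.

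Of 40 further macrophage genes, all tested, 2 rose, 5 fell and 33 did not pass (edgeR), and their median log2 fold change was -0.37, against 0.00 over all genes tested. The share that rose was 5% and the share that fell 12.5%, beside 2.44% and 11.4% of all genes, so that the share that fell was near that of all genes. The genes that rose were Cd163 and Lyve1. Cd163 encodes the scavenger receptor for haptoglobin and haemoglobin on resident macrophages. It had 29.1, 8.85, 14.7, 11.3 and 19.1 CPM in exercise 6 to 10, against 0.777, 0.601, 5.60, 3.89 and 4.41 CPM in sedentary 1 to 5. Every exercise library lay above every sedentary library, as in 6.24% of all genes tested. The log2 fold change was 2.44 ± 0.61 (SE, edgeR adjusted p = 0.0271), or 1.87 without sedentary 1 and 2 (edgeR adjusted p = 0.00949). Leaving out exercise 6, 8 or 10 ended the call (edgeR adjusted p up to 0.0657). With the acinar or intestinal list as a covariate the log2 fold change was 2.63 or 1.49 (edgeR adjusted p = 0.452 and 0.816).

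Lyve1 encodes a hyaluronan receptor of lymphatic endothelium and of a class of resident macrophages. It had 59.1, 22.0, 28.8, 33.6 and 25.2 CPM in exercise 6 to 10, against 2.99, 4.10, 7.15, 7.47 and 13.8 CPM in sedentary 1 to 5. The groups did not overlap, with exercise higher, as in 6.24% of all genes tested. The log2 fold change was 2.24 ± 0.43 (SE, edgeR adjusted p = 0.00981), or 1.85 without sedentary 1 and 2 (edgeR adjusted p = 0.00838). With the acinar or intestinal list as a covariate it was 2.31 or 1.80 (edgeR adjusted p = 0.370 and 0.816). Of 8 endothelial genes, Lyve1 included, it was the gene that rose, a share of 12.5%, beside 2.44% of all genes. The summed level of the list was 225 to 329 CPM in exercise and 70.2 to 270 CPM in sedentary libraries. Folr2, a folate receptor of resident macrophages named after its values were seen, had 2.47 to 11.3 CPM in exercise and 0.382 to 4.31 CPM in sedentary libraries and did not pass (log2 fold change 1.36, edgeR adjusted p = 0.171). Exercise 6 held the highest level of Cd14, Mrc1, Cd163, Lyve1 and Folr2, and of Csf1r, C1qb, C1qc and Cd68 too. In proportion to Adgre1, Cd163 had a log2 ratio of 0.63 to 1.16 in exercise and -1.83 to -0.37 in sedentary libraries, and Lyve1 1.55 to 2.32 in exercise and -0.57 to 1.43 in sedentary libraries. Folr2 had ratios of -1.02 to -0.04 in exercise and -1.98 to -0.85 in sedentary libraries, and Itgax, which encodes the integrin CD11c, -1.58 to -0.71 in exercise and -0.97 to 2.54 in sedentary libraries. The Itgax ratio was highest in sedentary 1 and 2, where Adgre1 was at 2.15 and 1.20 CPM. Sedentary 4 and 5 lay inside the exercise range of that ratio. Its medians were -1.04 in exercise and -0.18 in sedentary libraries. The groups did not overlap for Cd163 and Lyve1, where exercise was higher, and overlapped for Folr2 and Itgax. How many of all genes would separate in such a ratio was not counted, so that this separation cannot be called particular to these genes. These 4 ratios were picked after their values were seen and were not tested. The acinar genes, given above, were higher in all exercise than in all sedentary libraries, and their part in the levels of Mrc1, Cd14, Cd163 and Lyve1 was not tested.

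Those that fell included Mertk, Lgals3, Irf8 and Ctss, which other cells make as well. Mertk encodes a receptor kinase with which macrophages engulf dying cells. It had 5.20, 3.25, 4.26, 3.35 and 6.15 CPM in exercise 6 to 10, against 38.2, 57.9, 13.1, 11.3 and 11.5 CPM in sedentary 1 to 5. Every exercise library was lower than every sedentary library, as was the case for 11.4% of all genes tested. Sedentary 1 and 2 were highest. The log2 fold change was -2.57 ± 0.51 (SE, edgeR adjusted p = 0.0114), and -1.39 without sedentary 1 and 2 (edgeR adjusted p = 0.00258). Limma-voom did not call it (adjusted p = 0.0658), and with the intestinal list as a covariate it was 0.54 (edgeR adjusted p = 0.816). Lgals3, the gene of galectin-3, averaged 9.34 ± 5.38 CPM in exercise and 45.6 ± 27.1 CPM in sedentary libraries (SD, n = 5 each, log2 fold change -2.29, edgeR adjusted p = 0.0139) and fell by 1.52 without sedentary 1 and 2. With the intestinal covariate its log2 fold change was 0.46 (edgeR adjusted p = 0.816). That covariate shared an r squared of 0.805 with the group, so that little of a group difference can be read beside it. The transcription factor gene Irf8 (log2 fold change -1.87) and the protease gene Ctss (-1.13), the last named after its value was seen, did not pass without sedentary 1 and 2 (edgeR adjusted p = 0.0669 and 0.0922). Leaving out exercise 6, 7 or 8 also ended the call of Irf8 (edgeR adjusted p up to 0.0659). With the intestinal covariate the log2 fold change of Irf8 kept its sign, at -0.51 (edgeR adjusted p = 0.890). Ctss also lost its call without any 1 exercise library and without sedentary 1, 2 or 5, and limma-voom called neither gene. The intestinal list was highest in sedentary 1 and 2 too, at 13747 and 21069 CPM, and its part in these falls was not tested.

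Itgax, named after its values were seen, had 2.21 to 4.81 CPM in exercise and 3.82 to 14.9 CPM in sedentary libraries. It missed the threshold with all libraries (log2 fold change -1.11, edgeR adjusted p = 0.0653) and passed without sedentary 1 and 2 (-0.90, edgeR adjusted p = 0.0404). Spi1, the gene of PU.1, averaged 5.00 ± 1.77 CPM in exercise and 6.76 ± 3.93 CPM in sedentary libraries (SD, n = 5 each), and did not pass (edgeR adjusted p = 0.519).

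Of 16 genes listed for the classical complement pathway, 14 could be tested, with a median log2 fold change of -0.36, against 0.00 over all genes tested. Of these, 0 rose (edgeR, 0 also under DESeq2, and 1 at an unadjusted p under 0.05), beside 2.44% of all genes. The 2 that fell made up 14.3%, beside 11.4% of all genes. Those were Cfi, the protease that inactivates C3b, at 0.769 ± 0.140 CPM in exercise and 5.62 ± 5.12 CPM in sedentary libraries (SD, n = 5 each, edgeR adjusted p = 0.0156), and C1qtnf12, which shares a domain with C1q but is a secreted metabolic factor (edgeR adjusted p = 0.0445). The log2 fold change of Cfi was -2.86, and -1.61 without sedentary 1 and 2 (edgeR adjusted p = 0.0203), and that of C1qtnf12 was -1.41, and -0.51 without them (edgeR adjusted p = 0.0862). Limma-voom called neither (adjusted p = 0.0887 and 0.122), and with the intestinal covariate they were 0.61 for Cfi and 0.81 for C1qtnf12. Both genes were highest in sedentary 1 and 2, the libraries richest in intestinal transcripts, whose part was not tested.

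Genes of other white blood cells gave wide ranges. Ptprc, the gene of the pan-leukocyte antigen CD45, had 13.6, 19.7, 22.0, 50.0 and 45.6 CPM in exercise 6 to 10, against 219, 11.1, 60.4, 27.2 and 63.0 CPM in sedentary 1 to 5 (edgeR adjusted p = 0.202). Sedentary 1 was far above the other sedentary libraries, and exercise 6, which was highest in most macrophage genes, was the lowest exercise library. The 8 T cell genes summed to 6.87 to 40.4 CPM in exercise and 31.5 to 387 CPM in sedentary libraries, the 5 B cell genes to 88.3 to 281 CPM and 55.0 to 885 CPM, and the 6 dendritic cell genes to 7.49 to 18.4 CPM and 5.57 to 48.4 CPM (exercise before sedentary). The 7 neutrophil genes summed to 0.651 to 3.67 CPM in exercise and 0.218 to 2.55 CPM in sedentary libraries, with Ly6g at 0 counts in all 10 libraries. The 7 mast cell genes summed to 11.0 to 20.5 CPM in exercise and 8.26 to 19.1 CPM in sedentary libraries, and the 7 fibroblast genes to 40.3 to 79.0 CPM and 16.5 to 148 CPM (exercise before sedentary).

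**Figure D4:**
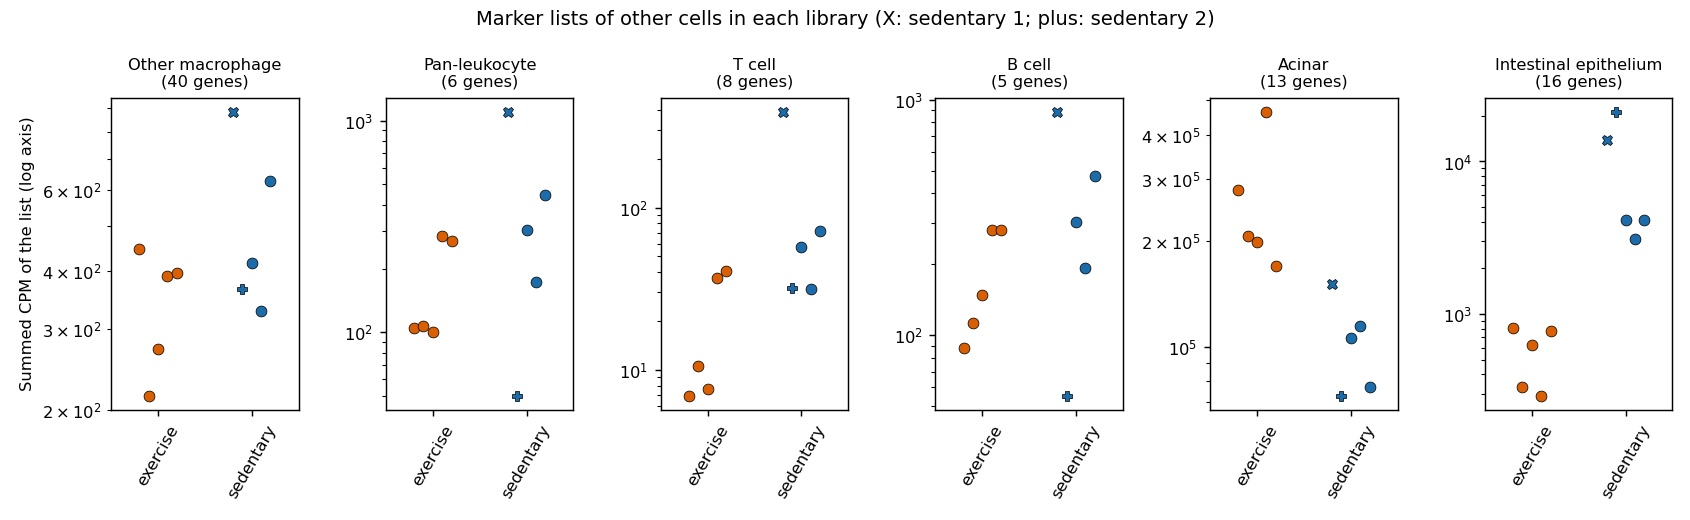
Summed CPM (log axis) of 6 marker lists in each library, exercise left and sedentary right, with an X for sedentary 1 and a plus for sedentary 2. The acinar sums do not overlap between groups, with exercise higher, and neither do the intestinal sums, with exercise lower, while the other 4 sums overlap.

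The direction given to the macrophage markers depended on which libraries and which scaling were used. With library totals alone the median log2 fold change over all genes was -0.34, and those of Adgre1, Csf1r, C1qa, C1qc and Cd68 changed sign, as they did without sedentary 1 and 2. Relative to that shift each of the 5 was higher. Cd14, at 1.67, passed under library totals (edgeR adjusted p = 0.0163), while Csf1, at 0.59, did not (edgeR adjusted p = 0.119). With the acinar list as a covariate the log2 fold changes of Cd14 and Csf1 were 1.37 and 0.52, and 0 of all genes tested were called (edgeR, 1693 at an unadjusted p under 0.05).

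**Figure D5:**
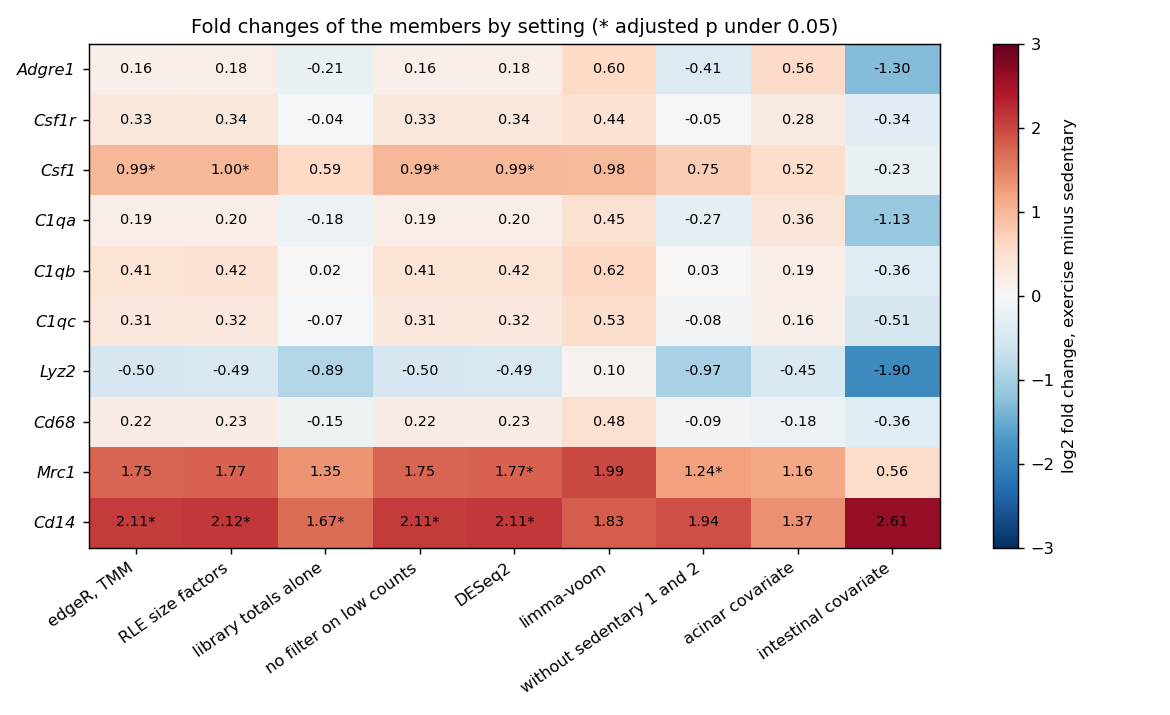
Log2 fold change of exercise minus sedentary for the 10 macrophage genes (rows) under 9 settings (columns), with a star where the adjusted p was under 0.05; red is higher in exercise and blue lower. The values of Cd14 and Mrc1 are above 0 in each column, from 1.37 to 2.61 for Cd14 and from 0.56 to 1.99 for Mrc1, while Adgre1, Csf1r, C1qa, C1qc and Cd68 take both signs. So do Csf1 and C1qb, which are below 0 with the intestinal covariate, and Lyz2, which is above 0 with limma-voom.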

How the data were processed

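Gene expression was measured in 10 stranded mRNA libraries. The authors deposited estimated counts per Ensembl gene. Fastp and kallisto are named, without versions, per the submitters' processing notes; no source used here gives the genome build, annotation or strand setting. Values that were not whole (12.6%, tolerance 1e-06) were rounded before testing. Genes were named from GENCODE M21.

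Groups came from the labels, which give no batch and no shared replicate number. R 4.3.3 with edgeR 4.0.16 was used: filterByExpr with a minimum of 10 counts and a total of 15, TMM scaling, quasi-likelihood test, Benjamini-Hochberg adjustment over 15298 genes, threshold 0.05. SEs are the log2 fold change divided by the root of the F statistic, and intervals are 95%. Ratios within libraries were compared by exact two-sided permutation. The edgeR step and the permutation test were tested on simulated data. Alternatives were RLE factors, library totals, no filter, DESeq2 1.42.0, limma-voom (limma 3.58.1), acinar or intestinal covariates, and libraries left out.

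The 10 genes and all lists were chosen with earlier results of these data known. Besides the 10, genes are named if they passed in the further macrophage, CSF1, CD14 and TLR4 or complement lists (at most 6 a list, smallest p first), if they were nearest in pattern, or as Ptprc, Il34, Tlr4, Ly96, Spi1 and Lyz1. One gene under this rule is not reported here. Others are said to be named after their values were seen. Libraries held 15081922 to 23222704 counts, and the lowest count of the 10 genes was 22 (Adgre1, sedentary 2). Coordinates come only from RefSeq (GRCm38.p6).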

Additional observations from a re-analysis of the deposited data

Results flagged for a closer look

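In groups of 5 libraries, a library was singled out when its gap to the nearest other library took most of the group's range. Of 70 groups of values looked at, 8 had such a library, and chance alone gives about 1 in 20 for independent groups of normally spread values. These groups are not independent, as Adgre1 and C1qa had a Pearson correlation of 0.988 over the 10 libraries. The 8 of 70 therefore cannot be read as more than chance gives. Adgre1 was at 15.4 CPM in exercise 6 and C1qa at 65.9 CPM in the same library, each above the other 4 exercise libraries. Csf1 was at 19.8 CPM in exercise 9, where the other exercise libraries lay between 10.1 and 11.6 CPM; without exercise 9 its log2 fold change was 0.81 (edgeR adjusted p = 0.0888). The log2 ratio of C1qc to Adgre1 was 2.97 in sedentary 1, above the other sedentary libraries. Lyz1 was at 506 CPM in sedentary 2, the library with the highest intestinal sum, which includes Lyz1, and the lowest Lyz2. Ptprc was at 219 CPM in sedentary 1, the library with the highest sums of T cell and B cell genes. Irak4 was at 2.28 CPM in exercise 7 and C1qtnf12 at 4.49 CPM in exercise 10, each below the other exercise libraries.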

How the results depend on the processing

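No paired analysis was possible because the groups share no replicate number. For the 10 genes, the 2 calls higher became 1 without sedentary 1 and 2 (Mrc1), 1 with library totals, and 0 with limma-voom (3 at an unadjusted p under 0.05), the acinar covariate (0 unadjusted) and the intestinal covariate (1 unadjusted). The count lay between 1 and 3 with 1 library left out, and DESeq2 called 3. Of the 40 further genes, limma-voom called 1 lower and the fit without sedentary 1 and 2 called 3 lower. Each covariate gave 0 higher and 0 lower there (11 unadjusted with acinar, 0 with intestinal, edgeR). With 1 library left out, these counts lay between 1 and 2 higher and 2 and 7 lower. Over all genes, 374 higher and 1745 lower became 978 and 2870 with DESeq2, 159 and 4408 with library totals, 177 and 339 with limma-voom, and 0 and 0 with either covariate (1693 unadjusted with acinar, 389 with intestinal). They became 644 higher without sedentary 1 and 2, and lay between 132 and 889 higher and 800 and 2721 lower with 1 library left out. The covariates shared an r squared of 0.805 (intestinal) and 0.665 (acinar) with the group.

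Log2 fold changes changed sign as follows; the cause was not tested. Without sedentary 1 and 2: Adgre1 -0.41, Csf1r -0.049, C1qa -0.27, C1qc -0.081, Cd68 -0.091, Il34 -0.10. With library totals: Adgre1 -0.21, Csf1r -0.038, C1qa -0.18, C1qc -0.066, Cd68 -0.15, Il34 -0.26, Tlr4 -0.060. With limma-voom: Lyz2 0.10. With the acinar covariate: Cd68 -0.18, Il34 -0.28, Tlr4 -0.94. With the intestinal covariate: Adgre1 -1.30, Csf1r -0.34, Csf1 -0.23, C1qa -1.13, C1qb -0.36, C1qc -0.51, Cd68 -0.36, Il34 -1.73, Mertk 0.54, Lgals3 0.46, Irak4 0.65, Ticam1 0.24, Cfi 0.61, C1qtnf12 0.81, Lyz1 0.38 (Lyz1 is part of the intestinal list). With 1 library left out, Adgre1 ranged from -0.14 to 0.66, C1qa from -0.043 to 0.57, Cd68 from -0.060 to 0.48, Lyz2 from -0.80 to 0.17 and Il34 from -0.15 to 0.45. Cd14 and Mrc1 kept their direction in every setting run.

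No ratio to Adgre1 passed in any setting. With 10 libraries a fully separated ratio could not pass alone. The smallest exact permutation p, 0.00794, became 0.0714 after adjustment over 9 ratios. Lack of a call therefore does not show that ratios were alike, also where fewer libraries allowed fewer divisions. Differences changed sign without sedentary 1 and 2 for Csf1r (0.31), C1qa (0.17), C1qc (0.30) and Cd68 (0.27), with Csf1r as denominator for C1qa (0.0081) and C1qc (0.083), and with 0.1 CPM added for C1qb (-0.015). With 1 library left out they ranged from -0.28 to 0.10 for Csf1r, from -0.20 to 0.0076 for C1qa, from -0.12 to 0.35 for C1qb, from -0.17 to 0.26 for C1qc and from -0.33 to 0.24 for Cd68. Leaving out exercise 7, 8, 9 or 10 ended the call of Lyz1 (edgeR adjusted p up to 0.0575), and leaving out any 1 exercise library or sedentary 1 or 2 that of C1qtnf12 (up to 0.107). Counts of 22 to 29 for Adgre1, Cd68, Mrc1 and Cd14 in sedentary 1 or 2 limit what can be said of those libraries.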

Other observations

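Genes of T cells were lower on fitted values in exercise than in sedentary islets, with 8 of 8 tested below 0 and a median log2 fold change of -2.59, but 1 of 8 passed (edgeR), while DESeq2 called 7 lower. The shares called lower were 12.5% by edgeR and 87.5% by DESeq2, beside 11.4% and 15% of all genes tested. The gene that passed by edgeR was Cd8a, the co-receptor of cytotoxic T cells, named after its values were seen. It had 0.335, 0.586, 0.460, 1.22 and 2.25 CPM in exercise 6 to 10, against 47.6, 11.7, 6.38, 3.24 and 5.34 CPM in sedentary 1 to 5. The groups did not overlap, with exercise lower, as in 11.4% of all genes tested. The log2 fold change was -3.91 ± 0.86 (SE, edgeR adjusted p = 0.0168), or -2.30 without sedentary 1 and 2 (edgeR adjusted p = 0.0187). Limma-voom did not call Cd8a, nor did edgeR without exercise 7, without exercise 8 or with the acinar or intestinal list as a covariate. Its level was highest in sedentary 1 and 2, the libraries highest in intestinal genes, whose part was not tested. Cx3cr1, the fractalkine receptor of many resident macrophages, had 0.838 to 3.71 CPM in exercise and 0.983 to 5.02 CPM in sedentary libraries and did not pass (edgeR adjusted p = 0.170).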
